A study of Mus musculus with 6 samples.

Results

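The genes described here are the angiopoietin ligands Angpt1 and Angpt2, their receptor Tek (also called Tie2), the related receptor Tie1, and the angiopoietin-like genes Angptl1, Angptl2 and Angptl4. They were taken by symbol, as all probe sets annotated to these 7 genes. In the probe annotation used here 6 of the 7 genes had at least 1 probe set, which gave 11 of the 45037 probe sets and 6 of the 18193 genes tested. That annotation names no probe set for Angptl2, which is not analysed here. By gene, Tek and Angpt2 had higher signals in endosteal than in central RNA and passed the test, and Angpt1, Tie1, Angptl4 and Angptl1 did not pass. Angpt4, a further ligand of Tek that is outside these 7 genes, also passed, with a larger log2 change than any of the 6.

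Tek is a receptor tyrosine kinase of endothelial cells and of haematopoietic stem cells. Angpt1 activates it and supports quiet, tight vessels, whereas Angpt2, which endothelial cells release, can block or activate the receptor depending on context. Tie1 has the same build, binds angiopoietins poorly and modulates Tek at the cell surface. The angiopoietin-like proteins share the fibrinogen-like domain of the angiopoietins but are not classical ligands of Tek or Tie1. In bone marrow, Angpt1 is made by stromal cells around vessels, by megakaryocytes and by haematopoietic stem and progenitor cells.

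The study used femurs of male C57BL/6 mice aged 8 weeks, 3 in all, which had been given saline by intraperitoneal injection. The endosteal group holds 3 arrays of RNA that Trizol, a phenol-based lysis reagent, took off the inside of femoral shafts after the marrow had been washed out. The central group holds 3 arrays of RNA from the washed-out marrow cells, which were spun down before lysis. Both groups share strain, sex, age and saline, the shafts had their metaphyses cut off and their outer muscle and periosteum scraped and rubbed away, and no gene was altered in either. The endosteal RNA is thus whatever stayed on the bone, not a sorted cell type, and the comparison asks which niche genes are higher at the bone surface.

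Signals are linear intensities on arrays with 1 common scale, and median signal per array was 119 to 131 on endosteal and 96.9 to 106 on central arrays. By limma on log2(signal + 16), with a call at an adjusted p under 0.05, 1441 of all genes (7.92%) rose and 731 (4.02%) fell in endosteal RNA, so that 66.3% of calls were upward. That share was 32.4% when each array was centred on its median (963 higher, 2013 lower) and 99.6% with arrays scaled to the spiked poly-A controls (10837 higher, 46 lower). The geometric mean signal of those spikes was 760 to 824 on endosteal and 1448 to 1858 on central arrays. The 3' to 5' signal ratio of the actin control was 1.32 to 1.40 on endosteal and 1.15 to 1.23 on central arrays. That of the Gapdh control was 0.767 to 0.881 on endosteal and 0.820 to 0.888 on central arrays. Of 10 osteoblast and bone matrix markers 9 were called higher in endosteal RNA (summed signal 95094 to 110233 on endosteal and 2299 to 3204 on central arrays). All 16 skeletal muscle markers were also called higher (77546 to 155719 on endosteal and 1111 to 1568 on central arrays). The endosteal arrays thus carried muscle transcripts beside those of bone, and their part in the results below was not tested.

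Tek showed the largest change of the 6 genes. Its probe set (1418788_at) had, in the order A, B, C used for all single values below, signals of 386, 361 and 352 in the endosteal samples, against 68.2, 38.5 and 60.3 in the central samples. All endosteal values lay far above all central ones, and the 3 endosteal arrays were close to each other. Tek averaged 366 ± 17.8 in endosteal and 55.7 ± 15.4 in central RNA (SD, n = 3 each), a log2 change of 2.44 (SE 0.19, 95% interval 1.96 to 2.92, limma adjusted p over all genes = 0.00405). That is 5.42-fold on the log2(signal + 16) scale and 6.58-fold as a plain ratio of means. In bulk RNA, more cells of a type and more RNA per cell cannot be told apart, here and in the results that follow. With the array letter as a block the adjusted p was 0.0499 by gene, and 0.0921 in the fit over all probe sets, where the call ended.

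Tie1 (1416238_at) had signals of 277, 159 and 171 in the endosteal samples, against 116, 103 and 94.1 in the central samples. All endosteal values were above all central ones, but endosteal array A stood well above the other endosteal arrays. The means were 203 ± 64.7 in endosteal and 104 ± 11.1 in central RNA (SD, n = 3 each). The log2 change of 0.82 (SE 0.23, 95% interval 0.25 to 1.40) did not pass (limma adjusted p = 0.0761).

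Tek and Tie1 were also set against each other within arrays. The log2 value of Tek minus that of Tie1 was 0.46, 1.10 and 0.97 in the endosteal samples, against -0.65, -1.13 and -0.53 in the central samples. The level of such a difference has no meaning between 2 probe sets, but its shift between regions depends little on the scaling of an array. The shift was 1.61, with no overlap between regions (exact permutation test, two-sided, p = 0.1, the smallest that 3 against 3 arrays allow, so that this test could not reach 0.05). This comparison was chosen after the values had been seen.

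The receptor genes are a pair of endothelial genes on mouse chromosome 4. ETS transcription factors, which bind a GGAA core, are a hallmark of endothelial gene control, so the bases just before both genes are shown. They come from a set of gene start regions placed by RefSeq (GRCm38.p6). The set used here had entries for 4 of the 7 symbols (Tek, Tie1, Angptl1 and Angptl2), which does not mean that RefSeq lacks the others. Tek lies on the plus strand, and chr4:94739039-94739085 is the stretch of its window before the annotated gene. Tie1 lies on the minus strand, and chr4:118489850-118490099 is the stretch before its start. Capitals mark GGAA or its complement TTCC.
Tek: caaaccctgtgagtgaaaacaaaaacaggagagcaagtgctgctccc
Tie1: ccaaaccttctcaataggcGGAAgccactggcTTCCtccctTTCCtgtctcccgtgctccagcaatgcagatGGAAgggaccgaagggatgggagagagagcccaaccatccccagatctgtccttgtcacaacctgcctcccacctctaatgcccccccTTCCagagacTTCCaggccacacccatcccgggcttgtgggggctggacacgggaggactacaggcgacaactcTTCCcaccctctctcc

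The 250 bases before the start of Tie1 held 7 matches of GGAA on either strand, and 3.82% of 32851 windows of that length held as many or more. The window of 250 bases for Tek held 2 matches, and 76.8% of windows held as many or more. Only its first 47 bases lie before the annotated gene and are shown, and these held 0 matches. They are a shorter stretch, so the 2 printed stretches are not compared. At least 1 match was present in 93.4% of windows, so a match describes the letters and not a binding site.

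**Figure D1:**
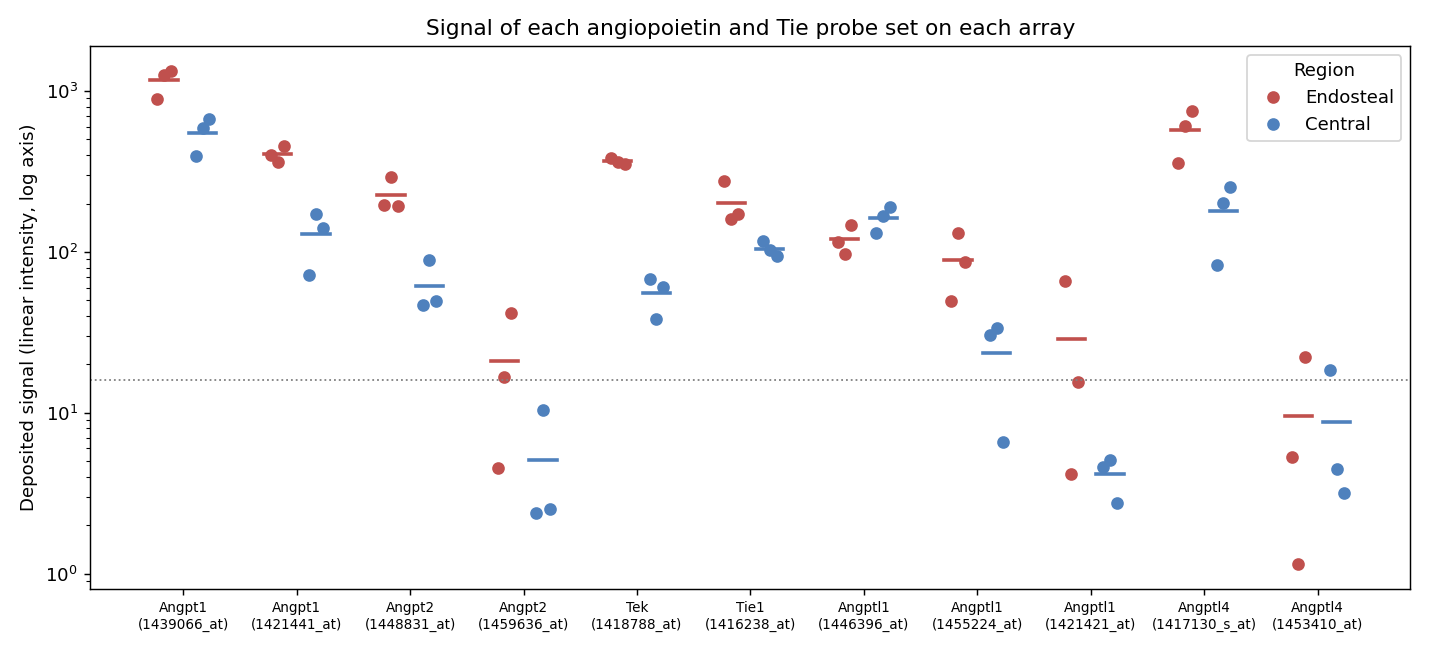
Signal of the 11 member probe sets (deposited linear intensity, log axis) on each of 3 endosteal (red) and 3 central (blue) arrays, with bars at the means and a dotted line at a signal of 16. Endosteal values lie above all central values for 7 probe sets, the regions overlap for 4, and the dimmer probe sets of Angpt2, Angptl1 and Angptl4 scatter around the line.

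Among the ligands, Angpt1 had 2 probe sets. The brighter one (1439066_at) had signals of 891, 1260 and 1341 in the endosteal samples, against 395, 588 and 673 in the central samples. The dimmer one (1421441_at) had 403, 363 and 455 in the endosteal samples, against 72.3, 172 and 142 in the central samples. Neither probe set overlapped between regions.

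The brighter probe set stood for the gene and averaged 1164 ± 239.7 in endosteal and 552 ± 143 in central RNA (SD, n = 3 each). Its log2 change of 1.07 (SE 0.26, 95% interval 0.41 to 1.72) missed the threshold over all genes (limma adjusted p = 0.0564). The dimmer probe set changed by 1.61 (SE 0.31) and passed over all probe sets (limma adjusted p = 0.0493), but not with the letter as a block (0.137) or without any 1 of the 6 arrays (0.0769 to 0.122). Angpt1 thus had the same direction in both probe sets and a call that depended on the probe set.

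Angpt2, the ligand that endothelial cells store and release, rose. Its brighter probe set (1448831_at) had signals of 194, 293 and 193 in the endosteal samples, against 46.7, 88.8 and 49.3 in the central samples. Array B was the highest in both regions, and the regions did not overlap. The means were 227 ± 57.2 in endosteal and 61.6 ± 23.6 in central RNA (SD, n = 3 each), a log2 change of 1.66 (SE 0.27, 95% interval 0.98 to 2.34, limma adjusted p over all genes = 0.0215). This is 3.17-fold on the log2(signal + 16) scale. The call ended when endosteal array A, endosteal array B, central array A or central array C was left out (adjusted p = 0.0540, 0.0581, 0.0742 and 0.0721), and for the mean of both probe sets (0.0544). With the letter as a block the adjusted p was 0.0499 by gene. In the fit over all probe sets the brighter probe set passed (limma adjusted p = 0.0367). That call ended with the letter as a block (0.0996), with pseudocount 1 (0.0601) and after quantile normalisation (0.0520). It also ended whichever array was left out (0.0650 to 0.124), and held under 5 of 14 alternatives.

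The other probe set of Angpt2 (1459636_at) was dim, with 4.51, 16.7 and 41.5 in the endosteal samples, against 2.38, 10.4 and 2.52 in the central samples. Signals of this size hold little information, and its change of 0.70 (SE 0.41) did not pass (limma adjusted p over all probe sets = 0.371). The log2 value of Angpt2 minus that of Angpt1 shifted by 0.60 between regions with the brighter Angpt1 probe set (exact permutation p = 0.2) and by 0.05 with the dimmer one (exact permutation p = 0.9). The smallest p that 3 against 3 arrays allow is 0.1, so these shifts are given as a description. Both values were added after the data had been seen.

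Angpt4, the mouse counterpart of human ANGPT4 and another ligand of Tek, was among related genes listed beside the 7. Its brighter probe set had signals of 533, 528 and 472 in the endosteal samples, against 13.6, 23.0 and 35.0 in the central samples. It was near background in central RNA and clearly above it on every endosteal array. The log2 change was 3.76 (SE 0.22, 95% interval 3.21 to 4.31, limma adjusted p over all genes = 0.00210, and 0.0455 with the letter as a block). The dimmer probe set of Angpt4 changed by 2.44 (SE 0.41, limma adjusted p over all probe sets = 0.0353). With the letter as a block, the fit over all probe sets called none, so neither probe set of Angpt4 passed there.

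**Figure D2:**
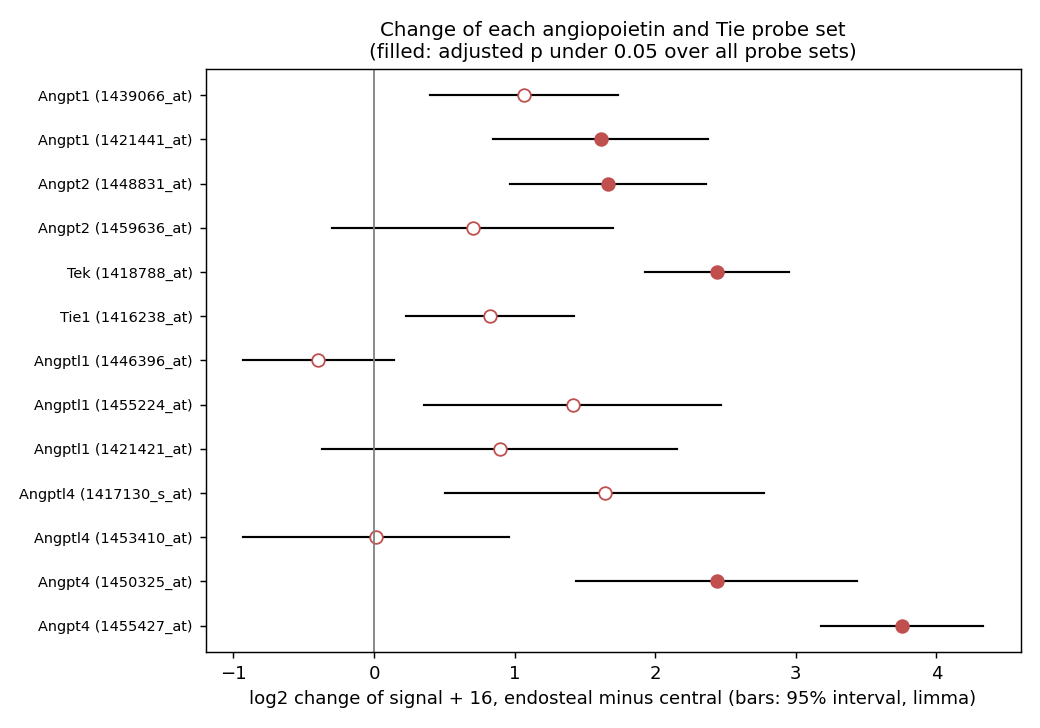
The log2 change of signal + 16, endosteal minus central, for the 11 member probe sets and the 2 probe sets of Angpt4, with 95% intervals from limma. Filled points passed an adjusted p of 0.05 over all 45037 probe sets: 1 of the 2 Angpt1 probe sets, 1 of the 2 Angpt2 probe sets, Tek, and both probe sets of Angpt4.

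The angiopoietin-like genes did not pass. Angptl4, an inhibitor of lipoprotein lipase made by fat, muscle and liver, had 1 probe set with clear signal (1417130_s_at). It read 357, 604 and 747 in the endosteal samples, against 83.1, 203 and 253 in the central samples. In both regions array A was the lowest and array C the highest, and the regions did not overlap. The means were 570 ± 197 in endosteal and 180 ± 87.4 in central RNA (SD, n = 3 each), with a log2 change of 1.64 (SE 0.46, 95% interval 0.50 to 2.78, limma adjusted p = 0.0762). With the letter as a block its SE was 0.16 and its adjusted p 0.0536. The other probe set of Angptl4 (1453410_at) was dim on all arrays, with signals of 1.15 to 22.2 on endosteal and 3.16 to 18.5 on central arrays.

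Angptl1, a secreted protein that restrains vessel growth, had 3 probe sets that disagreed in direction. The brightest (1446396_at), which stood for the gene, read 115, 96.6 and 148 in the endosteal samples, against 131, 166 and 189 in the central samples. The regions overlapped, and the log2 change of -0.40 (SE 0.21, 95% interval -0.91 to 0.12) did not pass (limma adjusted p = 0.272). A second (1455224_at) read 49.5, 130 and 86.6 in the endosteal samples, against 30.4, 33.8 and 6.54 in the central samples. It did not overlap between regions, and its change of 1.41 (SE 0.43) did not pass over all probe sets (limma adjusted p = 0.127). The dimmest (1421421_at) was above a signal of 16 on endosteal array A alone, at 66.4, and its change of 0.89 had an adjusted p of 0.369 by limma. The mean of the 3 probe sets changed by 0.64, the opposite direction to the brightest one (adjusted p = 0.0785), and the brightest one also turned to 0.54 under poly-A scaling.

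In all, 2 of the 6 measured genes were called higher by limma (33.3%, against 7.92% of all genes). None of the 6 was called lower (4.02% of all genes), which says little for so few genes. With the letter as a block, 5 of the 6 were higher and 0 lower at an unadjusted p under 0.05 by limma (16.8% and 10.4% of all genes). Of the 11 probe sets 3 were called higher (27.3%, against 3.21% of all probe sets, of which a further 1.29% were called lower), or 0 of 11 with the letter as a block, where all 45037 probe sets also gave 0 calls (7 of the 11 and 5532 of all higher at an unadjusted p under 0.05). The endosteal arrays lay entirely above the central ones for 5 of 6 genes (22.3% of all genes) and 7 of 11 probe sets (17.8% of all). The median log2 change was 1.35 over the 6 genes and 0.10 over all genes. Probe sets of 1 gene share its transcript and are not separate evidence.

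Genes of Tek signalling did not share 1 direction. Of 18 measured, 4 were called higher and the median change was -0.04. Ptprb, the phosphatase VE-PTP that removes phosphate from Tek, read 895, 636 and 596 in the endosteal samples, against 106, 123 and 137 in the central samples. Its endosteal arrays stood far above all central ones, with a change of 2.38 (SE 0.20, limma adjusted p = 0.00446). Svep1, a matrix protein known to bind Tie1, rose by 1.93 and the adaptor Grb14 by 1.51 (limma adjusted p = 0.0146 and 0.0410). The phosphatase Ptpn11 rose by 0.56 (adjusted p = 0.0488). Foxo1, the transcription factor that signalling from Tek keeps out of the nucleus and that drives Angpt2, had means of 596 in endosteal and 920 in central RNA and did not pass (log2 change -0.63, adjusted p = 0.142). The docking protein Dok2 changed by 0.28 (adjusted p = 0.283). The other genes of the list went both ways without passing. Grb7 changed by 1.31 (limma adjusted p = 0.122), Rasa1 by 0.15 and Nck1 by 0.14. Sos1, Pik3cb, Rac1, Tnip2, Pik3r1 and Shc1 changed by -0.04 to -0.37. Pik3ca, Akt1 and Grb2 changed by -0.39, -0.46 and -0.49.

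Of 11 genes that encode receptors, partners or targets of angiopoietin-like proteins, 5 were called higher and 1 lower, with a median of 0.67. Lpl, the lipase that Angptl4 inhibits, read 4771, 6278 and 5266 in the endosteal samples, against 1743, 1371 and 2219 in the central samples (log2 change 1.62, SE 0.22, limma adjusted p = 0.0133). Gpihbp1, which holds the lipase on capillary walls, rose by 1.78 (SE 0.16, adjusted p = 0.00496). Sdc1, Itgav and Itgb1 rose by 1.43, 1.22 and 0.85. The gene called lower was Pirb, an inhibitory receptor of blood cells that binds several angiopoietin-like proteins. It had 2769, 2981 and 2789 in the endosteal samples, against 7022, 5375 and 4458 in the central samples, and fell by 0.95 on the log2 scale (SE 0.19, adjusted p = 0.0356).

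The remaining relatives of the family were dim. Angptl6 and Angptl7 had means of 81.5 and 29.0 in endosteal RNA, against 109 and 9.33 in central RNA, and neither passed (limma adjusted p = 0.985 and 0.134). Angptl8 had means of 61.9 in endosteal and 49.3 in central RNA (adjusted p over all probe sets = 0.698). Of Angpt4, Angptl6 and Angptl7, Angpt4 alone was called, and the median log2 change of the 3 was 0.77.

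Angptl4 responds to fatty acids through PPAR receptors and to low oxygen. Of 15 measured PPAR-responsive genes of lipid use, 3 were called higher (median 0.38): Fabp3 at 3.44, Pdk4 at 3.42 and Fabp4 at 2.53. Fabp3 is a fatty acid carrier of muscle, Fabp4 one of fat and endothelium, and Pdk4 a kinase that muscle expresses strongly. The other genes of the list did not pass, from Acadm at 0.52 (limma adjusted p = 0.0508) to Cpt1a at -0.26. Upward changes were those of Acadm, Slc25a20, Acaa2, Ucp3, Plin5, Plin4, Txnip and Cidea. Downward ones were those of Cd36, Plin2 (-0.10), Acadl and Cpt1a. Of 15 measured hypoxia-responsive genes 1 was called higher, Ldha, which encodes a lactate dehydrogenase chain, at 0.54 (limma adjusted p = 0.0497, median of the list 0.41). Vegfa, the vascular growth factor, changed by 0.52 and did not pass (adjusted p = 0.0989).

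Endothelial markers were higher in endosteal RNA, and Tek and Tie1 are 2 of the 26 genes in that list. Of the 26, 18 were called higher, with a median of 1.43, and the summed signal was 15864 to 17503 on endosteal and 5711 to 8483 on central arrays. By size of log2 change Tek stood in place 5, after Sox18 (2.83), Clec14a (2.79), Emcn (2.77) and Mmrn2 (2.49), and Tie1 in place 21. Kdr and Flt1, the receptors for Vegfa, rose by 1.80 and 1.16 (limma adjusted p = 0.0386 and 0.0437). Pecam1 and Cdh5, general endothelial adhesion genes, changed by 0.55 and 0.61 and did not pass (adjusted p = 0.0862 and 0.133). The change of Tek was thus among the larger ones of the list, and that of Tie1 was close to those of Sox7 (0.85) and Cdh5.

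**Figure D3:**
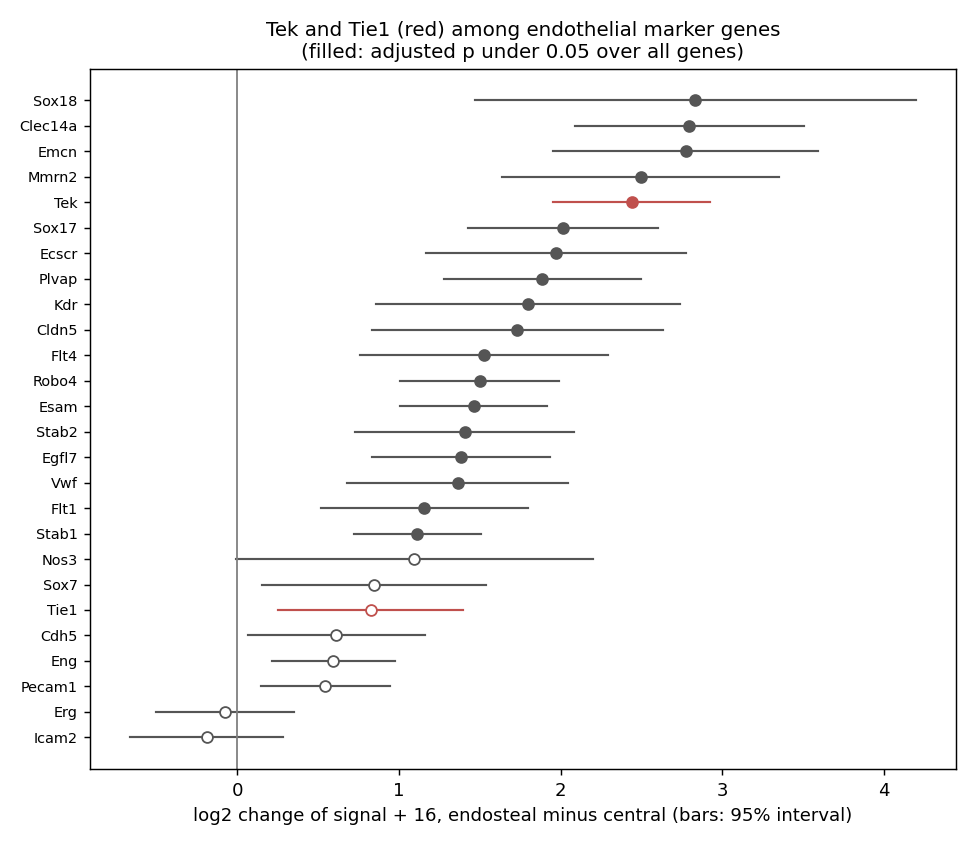
The log2 change of signal + 16, endosteal minus central, for the 26 endothelial marker genes in order of size, with 95% intervals from limma and filled points for an adjusted p under 0.05 over all genes. Tek (red, 2.44) is in place 5 and Tie1 (red, 0.82) in place 21, and 18 of the 26 points are filled.

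Other cells that can make or receive angiopoietins differed in how their markers moved. Of 14 perivascular stromal markers 11 were called higher, with a median of 2.39 (summed signal 41953 to 49294 on endosteal and 7822 to 12359 on central arrays). Among them Rgs5 rose by 3.93, Pdgfra by 3.11, Kitl, which encodes stem cell factor, by 2.69, Cxcl12 by 2.64 and the leptin receptor gene Lepr by 2.37. Of 12 pericyte and smooth muscle markers 6 were called higher, with a median of 1.57. Abcc9 rose by 2.63 and Tagln by 2.46, beside Rgs5, which is in both lists. Of 14 megakaryocyte markers 8 were called higher, with a median of 1.25 (121503 to 144990 on endosteal and 45884 to 75947 on central arrays). Pf4, the platelet chemokine, rose by 1.89 and Gp6, a platelet collagen receptor, by 1.75, while Itga2b changed by 0.71 without passing (limma adjusted p = 0.123). Angpt1 changed by 1.07 in its brighter and 1.61 in its dimmer probe set, and the part of any cell type in these changes was not tested.

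Stem and progenitor markers did not move together. Of 14 measured, 1 was called higher and 1 lower, with a median of 0.03 (16994 to 19295 on endosteal and 17076 to 19112 on central arrays). Mecom, which endothelial cells also express, rose by 2.13 from signals below 16 on all central arrays, and Gata2 fell by 0.61 on the log2 scale (limma adjusted p = 0.00409 and 0.0429). Kit, the receptor for stem cell factor, changed by 0.25 (adjusted p = 0.443). Of 9 measured adipocyte markers 3 were called higher, Adipoq at 2.58, Fabp4 at 2.53 and Pparg at 1.23, with a median of 0.20 (10386 to 12327 on endosteal and 4212 to 5872 on central arrays). Dgat2, Lipe and Pnpla2, which encode enzymes of triglyceride synthesis and breakdown, changed by -0.91, -0.60 and -0.57 and did not pass (limma adjusted p = 0.0596, 0.0722 and 0.0968). After centring or with the filter on dim genes, 3 adipocyte genes were called lower, and without 1 array 0 to 2 were called higher. In the muscle and bone lists, Acta1 rose by 6.55 and Ckm by 7.07, and Col1a1 by 6.34.

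With the letter as a block, the genes called higher numbered 13 in the muscle, 7 in the bone, 1 in the endothelial, 1 in the stromal, 1 in the PPAR-responsive and 1 in the related angiopoietin list. The endothelial one was Tek, and the related one Angpt4. The lists of Tek signalling, angiopoietin-like partners, hypoxia, stem cells, megakaryocytes, adipocytes and pericytes then had 0 calls by limma, with 5, 6, 5, 2, 12, 3 and 8 of their genes higher and 3, 1, 0, 1, 1, 3 and 0 lower at an unadjusted p under 0.05. Over all genes that fit had 16.8% higher and 10.4% lower at this unadjusted p. Without 1 array, 8 to 13 endothelial, 1 to 6 megakaryocyte, 9 to 11 stromal and 1 to 2 Tek signalling genes were called higher.

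Likeness of pattern was measured for Angpt1 and Angptl4, the members whose mean signal over the 6 arrays was above the median of all genes (226). Angptl4 had means of 570 in endosteal and 180 in central RNA, so its endosteal signals placed it there. Likeness was the root mean square difference in log2 values over the 6 arrays, each gene centred on its own mean. The candidates were 9094 genes with a mean above that median. Closest to Angpt1 were Serpinb2 (0.07), Alox12 (0.12) and Cxcl14 (0.12), which changed by 0.98, 0.98 and 1.06. Closest to Angptl4 were Myl9 (0.21), Chrdl1 (0.27) and Igf1 (0.28), which changed by 1.57, 1.71 and 1.80. The 6 arrays fall into 2 regions, so these distances mostly describe a like difference between regions.

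The plot of adjusted p values shows how far the calls rest on the processing. By gene, Tek passed under all 14 alternatives that gave it a value (adjusted p 0.000390 to 0.0499), including each of the 6 that leave out 1 array. Angpt1, Angptl4 and Tie1 lay above the threshold as reported. They passed under 5 of 15, 4 of 15 and 1 of 14 alternatives, and Angptl1 passed under none of its 14. For Angpt1 and Angptl4 these include the filter on dim genes, which takes the mean over all 6 arrays, endosteal ones among them.

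**Figure D4:**
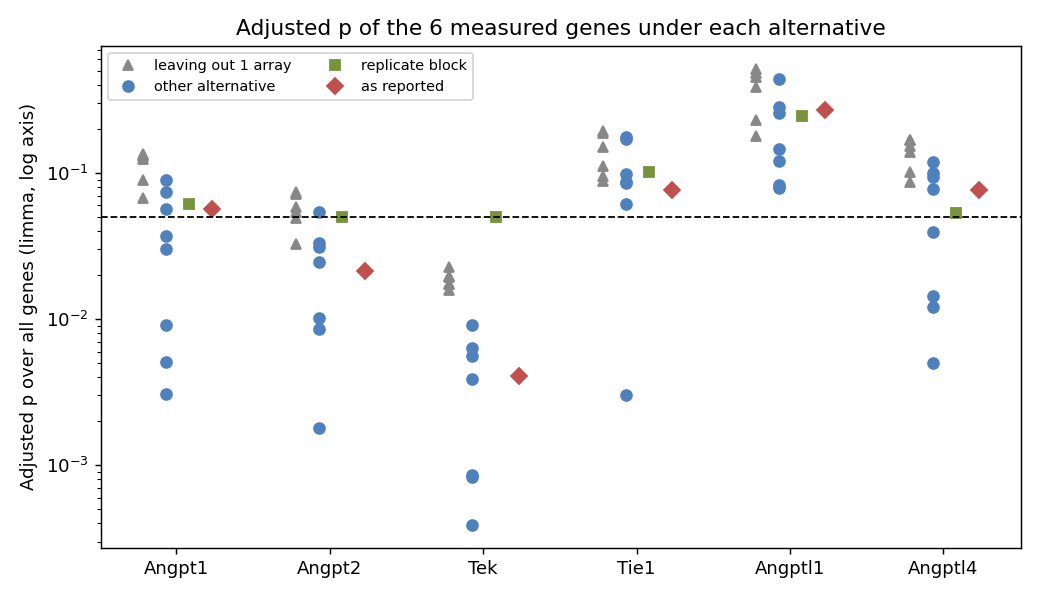
Adjusted p over all genes (limma, log axis) of the 6 measured genes as reported (red diamonds), with the letter as a replicate block (green squares), leaving out 1 array (grey triangles) and under the other alternatives (blue circles), with a dashed line at 0.05. All points of Tek lie below the line, the points of Angpt1, Angpt2, Tie1 and Angptl4 lie on both sides, and those of Angptl1 lie above.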

How the data were processed

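Biotin-labelled cRNA from 2 micrograms of total RNA per sample was hybridised to Affymetrix mouse arrays, 1 per sample. The values are the authors' deposited signal intensity of 45101 probe sets. The summarisation software is not given in the sources used here. The mean signal after trimming 2% at each end was 500.003 on every array, which points to scaling by a single factor per array. The number of arrays limits the precision, and signals below 16 made up 16.0% to 20.2% of an array.

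Gene names came from the platform annotation, looked up in a RefSeq table (GRCm38.p6). Of the probe sets 34945 named 1 gene (34741 found in RefSeq, 0 symbols changed), 932 several and 9160 none, and 64 are controls. The brightest probe set by mean signal stood for each of 18193 genes. Values were transformed as log2(signal + 16), which understates changes of dim genes, and regions were compared with limma 3.58.1 (R 4.3.3) without a block, two-sided, with Benjamini-Hochberg adjustment at 0.05. "Called" means past that threshold. Rows for single probe sets come from a second fit over 45037 probe sets. The procedure was tested on simulated data.

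The letters of the arrays are the same in both regions of the 3 mice, but the labels do not say whether 1 letter is 1 mouse. The deviations from the region means of arrays with the same letter had correlations of 0.05, 0.04 and 0.01. Those of arrays with different letters had correlations of -0.037 to 0.0005. These values do not settle whether the letters pair mice. The fit with the letter as a block is given beside member and Angpt4 results it changes or nearly changes. For list genes it is given as counts per list. Outside the muscle and bone lists, most calls of single list genes did not hold in it. P-values measure the spread between these samples. The members, 13 gene lists and tests were chosen with earlier results of these data known. The text names every member, up to 4 called genes of each list in its main direction and 2 in the other, a fixed set of related genes, and the 3 genes most like each brighter member. Other list genes were named after their values were seen. A further listed gene is not reported here.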

Additional observations from a re-analysis of the deposited data

How the results depend on the processing

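The alternatives were pseudocounts of 1 and 64, quantile normalisation, centring on the array median, scaling to the poly-A spike controls, keeping the brighter features, an intensity trend, the mean of a gene's probe sets, the letter as a replicate block, and leaving out each array. The median change of all genes was 0.10 as reported, -0.17 after centring and 0.99 with poly-A scaling, so a member's change under a scaling is to be read against that shift. By gene, Tek kept its direction and call under each alternative that gave it a value. As a probe set it lost the call with the replicate block (2.44, adjusted p = 0.0921). The filter left no value for Tek, Tie1, Angpt2 and Angptl1 by gene. The causes of the changes below were not tested.

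Angpt1 by gene passed at a log2 change of 1.00 with pseudocount 64, 2.09 with poly-A scaling, 1.07 with the filter or the trend and 1.34 for the mean of its probe sets. Angptl4 passed at 1.40 with pseudocount 64, 2.61 with poly-A scaling and 1.64 with the filter or the trend. Tie1 passed at 1.76 with poly-A scaling. Angpt2 did not pass at 1.18 for the mean of its probe sets, and its change was 1.48 to 1.90 without 1 array. Angptl1 turned to 0.54 with poly-A scaling, also as a probe set, and to 0.64 for the mean of its probe sets. The dim probe set of Angptl4, at 0.02, turned to -0.16 with pseudocount 1, -0.078 after quantile normalisation and -0.25 after centring, and was -0.32 to 0.28 without 1 array. The shift of Angpt2 against Angpt1 turned to -0.16 for the mean of probe sets. With the dimmer Angpt1 probe set it turned to -0.11 with pseudocount 64, -0.062 after quantile normalisation and -0.014 with poly-A scaling, and was -0.21 to 0.24 without 1 array. These shifts were chosen after seeing the data.

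The count of member genes called higher was 4 with pseudocount 64 or the trend, 5 with poly-A scaling, and 1 to 2 without 1 array. That of member probe sets was 1 with pseudocount 1, 7 with poly-A scaling, 6 with the filter and 5 with the trend. It was 0 with the replicate block and 1 without any 1 array. The filter left out the dimmer probe sets of Angpt2, Angptl1 and Angptl4. It takes the mean over all 6 arrays, so a probe set can pass it through its endosteal signals alone. The count of member probe sets with the filter is thus only a description. Over all 18193 genes, 1856 were called higher with pseudocount 64, 10837 with poly-A scaling and 2215 with the trend. With the replicate block 143 were called higher, and without 1 array 549 to 928. The counts of member genes are to be read against these. Genes called lower numbered 1105 with pseudocount 64, 2013 after centring, 46 with poly-A scaling, 1725 with the filter, 1693 with the trend, 6 with the replicate block and 101 to 307 without 1 array. Over all probe sets, as reported 1444 higher and 582 lower, the calls were 857 and 232 with pseudocount 1, 2382 and 1466 with pseudocount 64, 20869 and 100 with poly-A scaling, 2778 and 2715 with the filter, 3420 and 2913 with the trend, and 0 and 0 with the replicate block (limma, 5532 and 3693 at an unadjusted p under 0.05). They were 1927 lower after centring, and 210 to 868 higher and 5 to 181 lower without 1 array. Signals below 16 limit what the dimmer probe sets of Angpt2, Angptl1 and Angptl4 can show.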
